A study of Mus musculus with 4 samples.

Results

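Yap1, Wwtr1, the Tead1, Tead2, Tead3 and Tead4 genes and the targets Ctgf, Cyr61, Ankrd1 and Amotl2 were followed in satellite cells that had lost HDAC4. These 10 genes, of 43437 listed in each library, were picked by their symbols alone, without any measured value, and all 10 gave a usable value in every library. HDAC4 KO cells came from C57BL/6 mice of genotype HDAC4fl/fl Pax7CE/+ that received tamoxifen (TMX), and control cells from mice of that genotype that received vehicle, all aged 4 weeks. Both groups thus carried the floxed alleles and a Cre recombinase inserted into Pax7, which leaves 1 working Pax7 allele, and TMX and the deletion cannot be told apart in this design. Satellite cells, which are the muscle stem cells, were sorted as integrin α7+ cells negative for CD45, Ter119, CD31 and Sca1 and grown on collagen for 24 h before RNA was sequenced. Each group held 2 libraries, numbered 3 and 4. Whether the libraries of a group came from different animals is not stated, and the p-values then cover only the spread between the libraries, which may be technical.

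YAP (encoded by Yap1) and TAZ (encoded by Wwtr1) are transcriptional coactivators that do not bind DNA themselves and act mainly through the TEAD proteins. The kinases of the Hippo pathway phosphorylate YAP and TAZ and hold them in the cytoplasm, whereas stiff substrates, cell spreading and actin tension favour their entry into the nucleus. In mouse muscle, YAP is known for promoting the proliferation of activated satellite cells, and TEAD proteins bind MCAT elements of muscle genes. Much of this control acts on the protein, which RNA sequencing does not measure. Ctgf and Cyr61 encode secreted matricellular proteins, Ankrd1 an ankyrin repeat protein of the sarcomere and nucleus, and Amotl2 a scaffold that binds YAP and restrains it. All of these are widely used as readouts of YAP and TAZ, and Ctgf also responds to TGF-beta.

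The element bound by TEAD proteins holds the letters GGAATG, which read CATTCC on the other strand. Because the Cyr61 values separated the groups and those of Ankrd1 and Amotl2 overlapped, the 250 bases before the RefSeq start (GRCm38.p6) of each are shown 5′ to 3′ along the gene, with the letters GGAATG or CATTCC in capitals. The windows are chr3:145649986-145650235 for Cyr61 (minus strand), chr19:36119845-36120094 for Ankrd1 (minus strand) and chr9:102717554-102717803 for Amotl2 (plus strand). The Amotl2 window lies inside the span of the gene in the expression data, 102716672 to 102733418, so this RefSeq start is an internal one there.
Cyr61: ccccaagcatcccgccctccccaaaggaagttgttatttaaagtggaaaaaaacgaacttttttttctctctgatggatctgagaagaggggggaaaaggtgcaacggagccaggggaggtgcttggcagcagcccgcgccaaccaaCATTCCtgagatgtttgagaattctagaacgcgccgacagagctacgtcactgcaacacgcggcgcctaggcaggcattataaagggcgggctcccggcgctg
Ankrd1: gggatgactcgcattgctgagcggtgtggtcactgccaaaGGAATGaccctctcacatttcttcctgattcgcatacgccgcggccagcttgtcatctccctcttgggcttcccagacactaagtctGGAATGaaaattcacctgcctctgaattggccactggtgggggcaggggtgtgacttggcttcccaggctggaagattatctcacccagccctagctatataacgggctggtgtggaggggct
Amotl2: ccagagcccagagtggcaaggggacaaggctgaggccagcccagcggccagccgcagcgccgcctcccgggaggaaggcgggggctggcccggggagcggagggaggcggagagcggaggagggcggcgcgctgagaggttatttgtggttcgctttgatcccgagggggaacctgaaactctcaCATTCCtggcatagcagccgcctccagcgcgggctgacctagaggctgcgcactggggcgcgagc

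The Cyr61 window held 1 match, whose first base lay 103 bases before the start, the Ankrd1 window held 2, at 210 and 123 bases, and the Amotl2 window 1, at 65 bases. Of the 7 genes with a RefSeq promoter entry, 6 held the letters in at least 1 entry (Yap1, Wwtr1, Tead3, Cyr61, Ankrd1 and Amotl2), as did 8 of their 10 entries, where the overlapping windows of Wwtr1 shared a match. Over all 32851 promoter entries of this length, 12.6% held the letters on either strand, and 14.4% of the 27025 gene symbols did in at least 1 entry. The Tead2 window held no match, and Ctgf, Tead1 and Tead4 had no entry. A match is a run of letters and not a measured binding site. Matches were held by Cyr61 and Tead3, whose groups did not overlap, and by Yap1, Wwtr1, Ankrd1 and Amotl2, whose groups did. The part of these letters in any difference was not tested.

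The deposited values are FPKM, fragments scaled to transcript length and to the size of the library, so that levels of different genes can be set side by side. Most values of 1 or more had lost their decimal point and were restored. The ratios between the libraries were settled for each gene named here with values. A power of 10 common to all 4 libraries was fixed by the digits for Cyr61 and inferred for 7 of the 10 genes by a rule that was right for 974 of 1041 genes with a known level. It was not settled for Tead2 and Amotl2, whose FPKM are therefore printed at the likeliest level. Differences between groups are given as HDAC4 KO minus control on the log2(FPKM + 1) scale from limma, with the standard error (SE). A gene was called changed at an adjusted p under 0.05 (Benjamini-Hochberg) over the 12174 genes that averaged 1 FPKM or more.

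At least 1 FPKM was reached by 12052 to 12074 genes in the HDAC4 KO libraries and by 11825 to 11993 in the controls, and the depth of a library cannot be read from FPKM. Pax7 was present at 17.1 FPKM in both HDAC4 KO libraries, against 18.4 and 21.4 FPKM in the controls, and Myod1 at 563 and 530.0 against 633 and 833 FPKM. Of the 8 satellite cell markers, 3 were lower without overlap of the groups (Pax7, Myf5 and Myod1), 2 were higher without overlap (Des and Sdc4), and Itga7, Vcam1 and Chrna1 overlapped. Over all genes tested, 17.7% were lower and 30.9% higher without overlap. None of the 8 was called over genes of every type. Among markers of other cells, Ptprc (blood), Kdr (endothelium) and Tnmd (tendon) stayed under 1 FPKM in every library. Other markers of these cells were present, and the tendon factor Scx measured 82.0 and 82.6 FPKM in HDAC4 KO cells, against 61.8 and 93.0 FPKM in controls. Control 3 stood apart by RNA of mature fibres, with a summed 1678 FPKM over 8 myofibre markers, against 143 FPKM in control 4 and 107 and 215 FPKM in HDAC4 KO 3 and 4. It also held 21.01 FPKM of the globin Hbb-bs, against 0.199 to 1.28 FPKM in the other libraries.

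The targeted gene, Hdac4, measured 1.58 and 2.36 FPKM in HDAC4 KO 3 and 4, against 5.04 and 5.85 FPKM in control 3 and 4, where the common power of 10 is not settled. Both HDAC4 KO libraries lay below both controls, with a difference of -1.13 ± 0.18 (SE), and limma gave an adjusted p of 0.206. Among protein-coding genes alone it fell by 1.13 at an adjusted p of 0.0445. The recombination shifts the reading frame, so RNA of the undeleted exons may still be made. The source of the remaining Hdac4 RNA was not tested.

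YAP and TAZ transcripts overlapped between the groups. Yap1 (ENSMUSG00000053110, chromosome 9, 7931999 to 8004596, minus strand, GRCm38) measured 32.9 and 36.6 FPKM in HDAC4 KO 3 and 4, against 35.9 and 34.0 FPKM in control 3 and 4. The groups overlapped, and the difference of -0.01 ± 0.10 (SE) had a 95% interval from -0.27 to 0.26. Wwtr1 (ENSMUSG00000027803, chromosome 3, 57455649 to 57575910, minus strand) measured 36.3 and 40.0 FPKM in HDAC4 KO cells, against 37.8 and 34.8 FPKM in controls. These groups overlapped too, with a difference of 0.07 ± 0.10 (SE), an interval from -0.20 to 0.34, and a sign that turned to -0.01 with median-ratio scaling. Both intervals stayed within 0.34 of 0 on this scale.

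By the FPKM estimates, TAZ RNA was slightly above YAP RNA in each of the 4 libraries. The deposited confidence bounds of Wwtr1 and Yap1 nevertheless overlapped in HDAC4 KO 4, control 3 and control 4. In control 4 they ran from 33.2 to 36.4 FPKM for Wwtr1 and from 32.5 to 35.5 FPKM for Yap1. The ratio of Wwtr1 to Yap1 FPKM was 1.10 and 1.09 in HDAC4 KO 3 and 4, against 1.05 and 1.02 in control 3 and 4. The groups did not overlap, and the log2 ratio differed by 0.079. An exact two-sided permutation test gave p = 0.333, the smallest that 2 libraries against 2 can give. Their summed level was 72.9 ± 5.3 FPKM in HDAC4 KO cells and 71.2 ± 3.5 FPKM in controls (SD, n = 2 each).

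**Figure D1:**
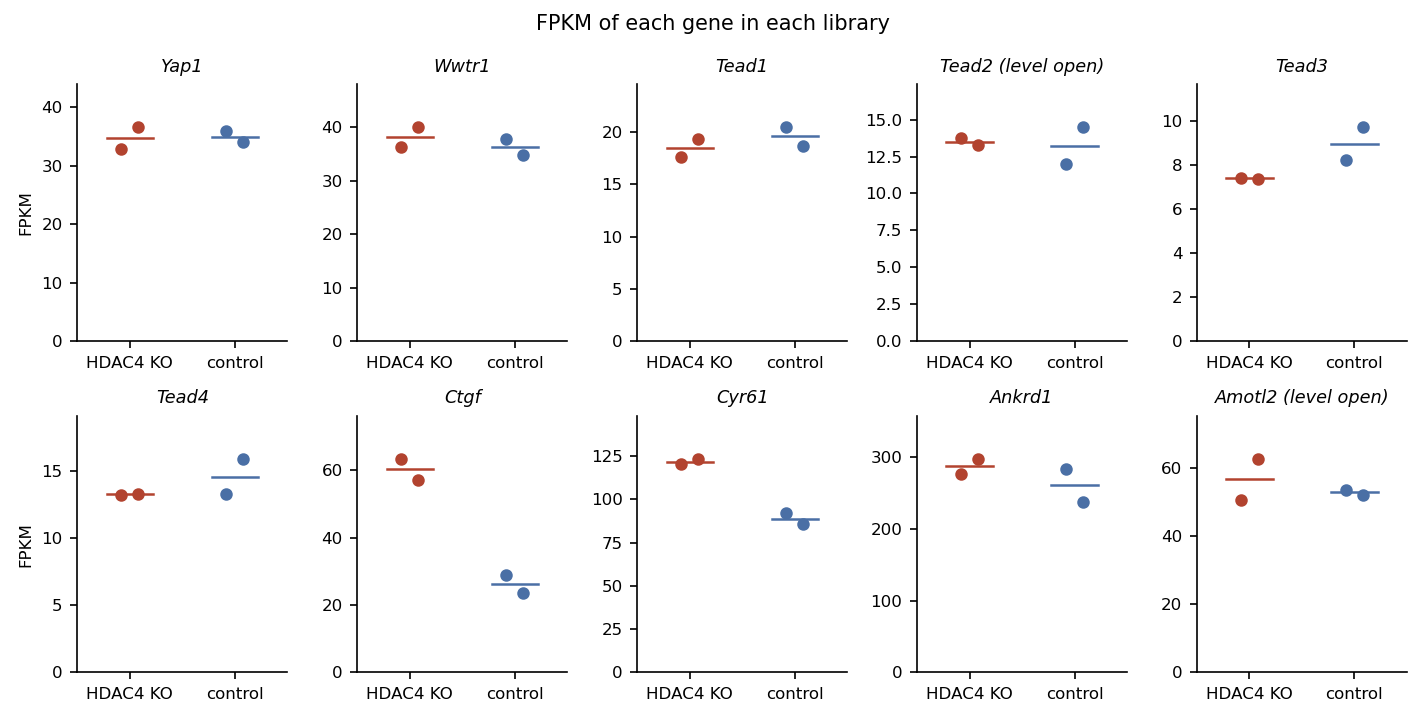
FPKM of each of the 10 genes (y axis, from 0) in the HDAC4 KO libraries (left in each panel) and the control libraries (right). Points are libraries, replicate 3 left of replicate 4, and bars are group means. For Ctgf and Cyr61 both HDAC4 KO points lie above both control points, for Tead3 below, and the groups overlap in the other 7 panels. The levels of Tead2 and Amotl2 are known up to a power of 10.

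The TEAD genes encode the DNA-binding partners of YAP and TAZ, and all 4 were present. Tead1 (ENSMUSG00000055320, chromosome 7, 112679318 to 112906807, plus strand) was the highest of the 3 whose level was inferred, at these levels. It measured 17.6 and 19.4 FPKM in HDAC4 KO 3 and 4, against 20.5 and 18.7 FPKM in control 3 and 4. Tead4 (ENSMUSG00000030353, chromosome 6, 128224288 to 128300823, minus strand), a gene that MyoD is known to activate in mouse myoblasts, measured 13.2 and 13.3 FPKM in HDAC4 KO cells, against 13.2 and 15.9 FPKM in controls. Both genes overlapped between the groups, with differences of -0.08 ± 0.10 for Tead1 and -0.12 ± 0.12 for Tead4 (SE).

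Tead3 (ENSMUSG00000002249, chromosome 17, 28331671 to 28350805, minus strand) was the lowest TEAD gene with an inferred level and the only TEAD gene with groups that did not overlap. Its level was inferred at a posterior of 0.977, and the other possible level was 1 power of 10 higher. Its place as the lowest depends on that inference. Tead3 measured 7.41 and 7.37 FPKM in HDAC4 KO 3 and 4, against 8.22 and 9.72 FPKM in control 3 and 4. The difference of -0.25 ± 0.12 (SE) had a 95% interval from -0.56 to 0.07 and an adjusted p of 0.431 with limma. Control 4 was the high library, and without it the difference was -0.14. Its bounds, as deposited, were also the widest among the 10 genes, at 18.5% to 22.3% of the estimate to either side.

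Tead2 (ENSMUSG00000030796, chromosome 7, 45215753 to 45233635, plus strand), known for its expression in the early mouse embryo, measured 13.8 and 13.3 FPKM in HDAC4 KO 3 and 4, against 12.0 and 14.5 FPKM in control 3 and 4. The groups overlapped, and the difference of 0.03 ± 0.12 (SE) turned to -0.05 with median-ratio scaling. Tead2 overlaps Cd37, a gene on the other strand. The libraries were stranded, but the strand setting of the counting is not given in the sources used here, so reads of such pairs may have been shared.

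The make-up of the TEAD family was taken as the share of each gene in the summed TEAD FPKM. Tead1 took 35.1% ± 1.8 in HDAC4 KO cells and 34.9% ± 4.4 in controls, and Tead4 25.2% ± 0.33 and 25.8% ± 1.8 (SD, n = 2 each). Tead2 took 26.5% and 24.9% in HDAC4 KO 3 and 4, against 22.2% and 24.6% in control 3 and 4. Tead3 took 14.3% and 13.8%, against 15.2% and 16.5%. The Tead2 share was thus higher by 2.25 percentage points and the Tead3 share differed by -1.85 percentage points, both without overlap, each with an exact two-sided permutation p of 0.333, the smallest possible here, and 0.667 when adjusted over the 4 shares. The Tead2 difference was 1.05 percentage points without control 3 and 3.45 without control 4, and the Tead3 difference -1.20 without control 4. With Tead2 at 0.1 times its printed level its share was 3.47% and 3.21%, against 2.78% and 3.16%, and at 10 times that level 78.3% and 76.8%, against 74.1% and 76.6%. The order of Tead2 among the TEAD genes is therefore not settled. The shares were not recomputed at the other possible level of Tead3. The sum of Tead1, Tead3 and Tead4, which does not depend on Tead2, was 38.2 and 40.0 FPKM in HDAC4 KO cells, against 41.9 and 44.3 FPKM in controls.

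**Figure D2:**
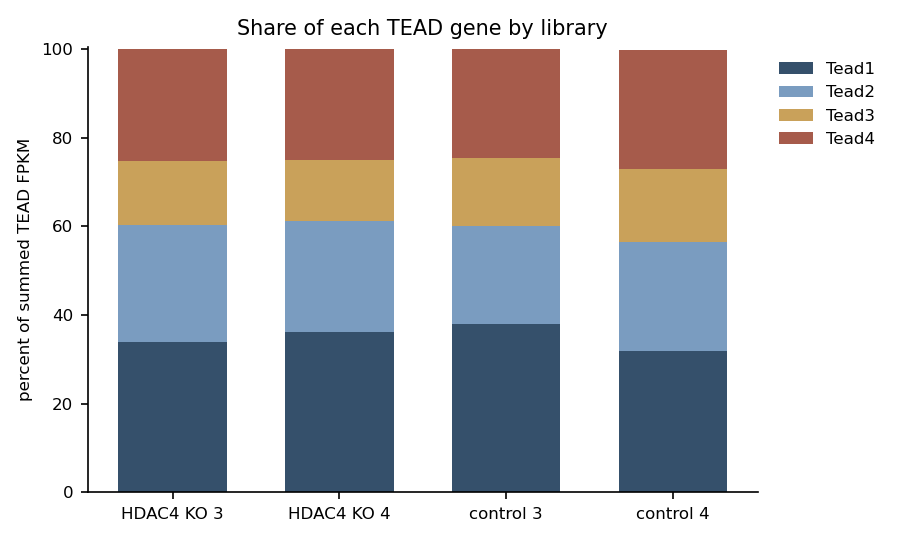
Percent of the summed FPKM of the TEAD genes (y axis) taken by Tead1, Tead2, Tead3 and Tead4 in each of the 4 libraries (x axis), with Tead2 at its printed level. Tead1 takes between 31.8% and 38.0% in every library, and the Tead3 segment is 14.3% and 13.8% in HDAC4 KO cells and 15.2% and 16.5% in controls.

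Among the targets, Ctgf differed most between the groups. Ctgf (ENSMUSG00000019997, chromosome 10, 24595442 to 24598683, plus strand) measured 63.4 and 57.1 FPKM in HDAC4 KO 3 and 4, against 28.9 and 23.4 FPKM in control 3 and 4. Both HDAC4 KO libraries lay above both controls, and the gap between the groups was wider than that between the libraries of either group (6.23 FPKM in HDAC4 KO, 5.49 FPKM in controls). Ctgf averaged 60.3 ± 4.4 FPKM in HDAC4 KO cells and 26.2 ± 3.9 FPKM in controls (SD, n = 2 each), a ratio of 2.30. The difference was 1.18 ± 0.14 (SE), with a 95% interval from 0.81 to 1.55 and an unadjusted p of 0.000654 in limma. The adjusted p over genes of every type was 0.128, which does not pass. Over the 10659 protein-coding genes alone, Ctgf rose at an adjusted p of 0.0279. Without control 3, the library with fibre RNA, the difference was 1.32. Gm15270, a noncoding gene, overlaps Ctgf on the other strand.

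Cyr61 (ENSMUSG00000028195, chromosome 3, 145646971 to 145649985, minus strand), a relative of Ctgf, measured 120.3 and 123 FPKM in HDAC4 KO 3 and 4, against 91.9 and 85.9 FPKM in control 3 and 4. It too was higher in both HDAC4 KO libraries, with means of 122 ± 2.2 FPKM in HDAC4 KO cells and 88.9 ± 4.2 FPKM in controls (SD, n = 2 each), a ratio of 1.37. The difference of 0.45 ± 0.09 (SE) had a 95% interval from 0.22 to 0.68, and limma gave an adjusted p of 0.226, and of 0.0923 among protein-coding genes alone. Neither passes. Without control 3 the difference was 0.50.

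Ankrd1 (ENSMUSG00000024803, chromosome 19, 36111965 to 36119844, minus strand) was the most abundant of the 10 genes, with 277 and 298 FPKM in HDAC4 KO 3 and 4, against 284 and 238 FPKM in control 3 and 4. The groups overlapped, control 4 being the low library, and the difference of 0.14 ± 0.12 (SE) had a 95% interval from -0.19 to 0.47. It was 0.02 without control 4, 0.27 without control 3 and 0.06 with median-ratio scaling or quantile normalization. Amotl2 (ENSMUSG00000032531, chromosome 9, 102716672 to 102733418, plus strand) measured 50.6 and 62.8 FPKM in HDAC4 KO cells, against 53.8 and 52.1 FPKM in controls. These groups overlapped as well, since HDAC4 KO 4 was the highest library and HDAC4 KO 3 the lowest, and the difference of 0.09 ± 0.13 (SE) had an interval from -0.26 to 0.44. Neither interval reached the difference of Ctgf.

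The proportions among the targets differed between the groups, without a test of these ratios. Ctgf stood at 0.229 and 0.192 of the Ankrd1 level in HDAC4 KO 3 and 4, against 0.102 and 0.0984 in control 3 and 4. It stood at 0.527 and 0.463 of the Cyr61 level in HDAC4 KO cells, against 0.315 and 0.273 in controls. The Amotl2 to Ankrd1 ratio overlapped between the groups, at 0.183 and 0.211 in HDAC4 KO cells and 0.189 and 0.219 in controls.

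**Figure D3:**
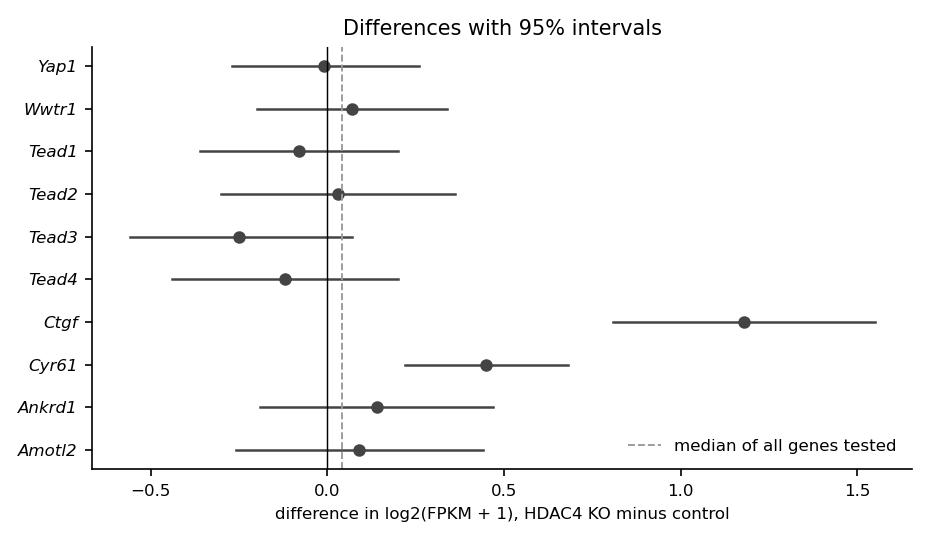
Difference in log2(FPKM + 1), HDAC4 KO minus control, for each of the 10 genes (points), with 95% intervals from limma (lines). The dashed line is the median of all genes tested, 0.04. The intervals of Ctgf and Cyr61 lie above 0, and those of the other 8 genes include 0.

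By mean FPKM over the 4 libraries, the order was Ankrd1 (274), Cyr61 (105), Ctgf (43.2), Wwtr1 (37.2), Yap1 (34.8), Tead1 (19.0), Tead4 (13.9) and Tead3 (8.18), leaving out the 2 genes at an unsettled level. The values of Wwtr1 and Yap1 overlapped between libraries, although the Wwtr1 estimate was the higher within each library. The place of Ctgf depended on the group, since it lay above Wwtr1 and Yap1 in both HDAC4 KO libraries and below them in both controls. The remaining neighbours in this order did not overlap in any library.

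In all, 0 of the 10 genes were called with limma over genes of every type, where 0.238% of all genes were called. That share came from 29 genes, of which 22 were at 0 in both libraries of a group. Only 2 of the 29 were protein-coding, as all 10 genes here are. Of the 10 genes, 2 had an unadjusted p under 0.05 with a positive difference and 0 with a negative one, where 10.7% and 3.61% of all genes did. Among protein-coding genes alone, 1 of 10 was called (Ctgf, higher), where 0.629% of genes were called higher. Both HDAC4 KO libraries lay above both controls for 2 of the 10 genes, a share below the 30.9% of all genes tested, and below both controls for 1 of 10, where 17.7% of all genes did. The median difference of the 6 coactivator and TEAD genes was -0.04 and that of the 4 targets 0.30, beside 0.04 over all genes tested.

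The genes whose pattern over the 4 libraries was closest to each target were looked up among 10649 protein-coding genes by the root-mean-square distance of centred log2(FPKM + 1). For Ctgf these were Mmp2, a protease of the extracellular matrix (distance 0.046, difference 1.17), and Fbln2, a matrix glycoprotein (0.071, 1.15). For Cyr61 they were Tstd3 (0.0064) and Cdk11b, a kinase of transcription and splicing (0.0092). For Ankrd1 they were Zfp277 (0.014) and Cops3, a subunit of the COP9 signalosome (0.015), and for Amotl2 Prrc2c (0.0053) and Svil, an actin-binding protein (0.0097). With 4 libraries, close patterns are frequent among so many genes. Mmp2, Fbln2, Tstd3, Prrc2c and Amotl2 itself are at an unsettled level, on which a distance of log2(FPKM + 1) depends. Which genes lie nearest is therefore not settled.

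The Hippo pathway genes upstream of YAP and TAZ, with TEAD cofactors of the Vgll family, lay on both sides of 0. Of 30 genes on this list, 29 were tested and 0 were called. Of these 29, 17 were above 0 and 12 below, with a median of 0.06 beside 0.04 over all genes tested, and with median-ratio scaling 14 were above and 15 below. An unadjusted p under 0.05 was reached by 3 genes with a positive and 0 with a negative difference, where 10.7% and 3.61% of all genes did. The smallest p values belonged to the scaffold Dlg5, with 32.8 and 33.3 FPKM in HDAC4 KO 3 and 4, against 24.6 and 27.2 FPKM in control 3 and 4 (0.34 ± 0.09, SE). Next came Map4k4, a kinase that can activate Lats1, with 214 and 237 FPKM in HDAC4 KO cells, against 179 and 184 FPKM in controls (0.31 ± 0.09, SE).

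Below 0, the smallest p values were those of Mob1b, an activating subunit of the LATS kinases, and of Lats1, which phosphorylates YAP and TAZ. Mob1b measured 7.75 and 7.97 FPKM in HDAC4 KO 3 and 4, against 13.7 and 9.31 FPKM in control 3 and 4, a difference of -0.48 ± 0.20 (SE). Lats1 measured 9.71 and 10.4 FPKM in HDAC4 KO cells, against 13.9 and 10.98 FPKM in controls, a difference of -0.28 ± 0.14 (SE). Both were highest in control 3. Lats2 was not restored.

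Further genes known as targets of YAP or TAZ stood mostly above 0. Of 25 genes on the list, 23 were tested and 0 were called, 21 were above 0 and 2 below, and the median was 0.32, beside 0.04 over all genes tested, of which 57.4% were above 0. Of these 23, 17 had both HDAC4 KO libraries above both controls, where 30.9% of all genes did, and 10 had an unadjusted p under 0.05 with a positive difference, where 10.7% of all genes did. Without control 3, 21 of 23 were above 0 and 7 had such a p, and 5 had it without control 4, without HDAC4 KO 3 or without HDAC4 KO 4. With median-ratio scaling 20 of 23 were above 0 and 6 had such a p. The list was chosen with earlier results of these data known, and several of its genes also respond to TGF-beta.

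Nuak2, a kinase of the AMPK family, measured 3.88 and 3.46 FPKM in HDAC4 KO 3 and 4, against 1.87 and 2.03 FPKM in control 3 and 4 (0.66 ± 0.14, SE). Both HDAC4 KO libraries lay above both controls, and limma gave an adjusted p of 0.241. The 2 genes below 0 were Birc5, the mitotic protein survivin, with 153 and 144 FPKM against 154 and 156 FPKM in controls, and Rbms3, an RNA-binding protein, at -0.12 ± 0.29 (SE).

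Genes of actin and SRF signalling, a pathway that shares mechanical inputs with YAP and TAZ, were above 0 in 12 of 15 tested genes, where 57.4% of all genes were, with a median of 0.16 beside 0.04 over all genes tested. Over genes of every type 0 of 15 were called, where 0.238% of all genes were, and 4 had an unadjusted p under 0.05 with a positive difference, where 10.7% of all genes did. Among protein-coding genes alone 3 of 15, Cnn2, Tagln and Acta2, rose, where 0.629% of genes did. Cnn2, a calponin of actin filaments, measured 47.2 and 51.3 FPKM in HDAC4 KO 3 and 4, against 26.5 and 26.3 FPKM in control 3 and 4 (0.87 ± 0.09, SE). Tagln, an actin-bundling protein, measured 48.2 and 52.7 FPKM in HDAC4 KO cells, against 22.7 and 16.4 FPKM in controls (1.34 ± 0.18, SE). Below 0 stood Rock1 and Rock2, kinases that raise actomyosin tension, where Rock2 measured 12.2 and 11.1 FPKM in HDAC4 KO cells, against 17.5 and 10.5 FPKM in controls. Srf itself measured 22.0 and 21.8 FPKM in HDAC4 KO cells, against 21.3 and 22.7 FPKM in controls.

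**Figure D4:**
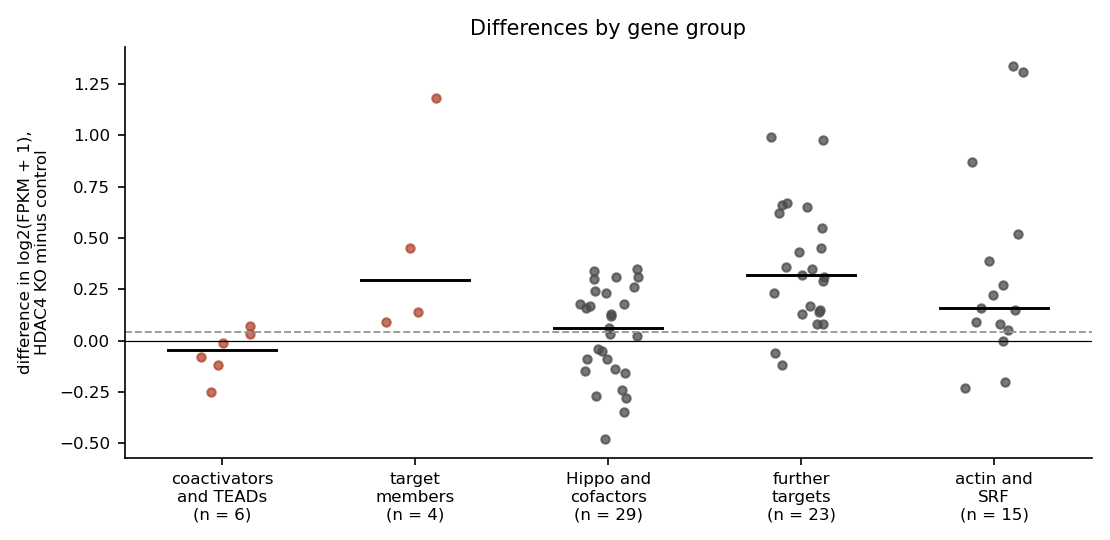
Difference in log2(FPKM + 1), HDAC4 KO minus control (y axis), of each tested gene in 5 groups (x axis, with the number of genes). Points are genes, spread sideways for legibility, bars are medians and the dashed line is the median of all genes tested, 0.04. The coactivators and TEAD genes lie near 0, and the further targets lie mostly above it, with a median of 0.32.

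Some markers of other cell types were also higher in both HDAC4 KO libraries, as Ctgf and Tagln were. The 7 smooth muscle and pericyte markers at a settled level summed to 109 and 133 FPKM in HDAC4 KO 3 and 4, against 63.8 and 53.4 FPKM in control 3 and 4. Most of that sum was Acta2 and Tagln, also counted above, and Myh11, Cnn1 and Rgs5 stayed under 1 FPKM in every library. Of the 4 tested, 3 were above 0 (Acta2, Tagln and Cspg4), where 57.4% of all genes were. The pericyte marker Cspg4, at an unsettled level, measured 7.93 and 8.42 FPKM in HDAC4 KO cells, against 3.95 and 4.04 FPKM in controls, and rose among protein-coding genes alone at an adjusted p of 0.0392 with limma (0.133 over genes of every type). The 7 glial markers summed to 32.9 and 29.6 FPKM in HDAC4 KO cells, against 14.6 and 13.7 FPKM in controls. Most of each sum was Ngfr, at 19.4 and 19.0 FPKM in HDAC4 KO cells, against 9.11 and 10.4 FPKM in controls. S100b and Cdh19 stayed under 1 FPKM in every library. Of the tested glial genes 5 of 5 were above 0, where 57.4% of all genes were, with Sox10 at 4.29 and 3.08 against 1.23 and 0.932 FPKM. Sox10 and Ngfr rose among protein-coding genes alone, at adjusted p values of 0.0445 and 0.0346 with limma (0.206 and 0.128 over genes of every type). The 6 fibro-adipogenic markers at a settled level summed to 65.6 and 68.4 FPKM in HDAC4 KO cells, against 71.1 and 27.4 FPKM in controls, where Col1a1 alone gave 39.5 FPKM in control 3. On that list Gsn measured 41.9 and 40.5 FPKM in HDAC4 KO cells, against 18.0 and 19.6 FPKM in controls, and rose among protein-coding genes alone at an adjusted p of 0.0168 with limma (0.0608 over genes of every type). Dcn, at 10.4 and 10.3 FPKM in HDAC4 KO cells, against 9.86 and 3.69 FPKM in controls, did not pass. Among endothelial markers Cdh5, at an unsettled level, measured 8.04 and 6.74 FPKM in HDAC4 KO cells, against 4.76 and 3.08 FPKM in controls, and Tek 1.51 and 1.24 against 0.698 and 0.734 FPKM. Among blood cell markers Lyz2, at an unsettled level, measured 5.94 and 4.19 FPKM in HDAC4 KO cells, against 2.25 and 1.72 FPKM in controls, and Cd68 3.20 and 3.37 against 2.53 and 2.45 FPKM. Cdh5, Tek, Lyz2 and Cd68 did not pass either. The other tested markers of these sets overlapped between the groups. The differences were 0.01 for Pecam1 and -0.06 for Emcn (endothelial), and -0.12 for Notch3 (smooth muscle and pericyte). On the fibro-adipogenic list they were -0.24 for Ly6a, 0.04 for Col1a1, -0.08 for Col3a1 and 0.22 for Lum. Among blood cell markers they were -1.85 for Hbb-bs and -1.51 for Hba-a1. The endothelial markers at a settled level summed to 3.96 and 4.90 FPKM in HDAC4 KO cells, against 5.63 and 2.55 FPKM in controls, and those of blood cells to 3.52 and 5.27 against 31.7 and 3.77 FPKM, both highest in control 3. No marker of these sets was at 0 in every library. In bulk RNA, fewer cells of a type and less RNA per cell cannot be told apart, and the part of these markers in the differences of Ctgf and the further targets was not tested.

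Tissue dissociation and early response genes, a class to which Cyr61 itself belongs, were above 0 in 8 of 9 tested genes, where 57.4% of all genes were. The median was 0.22, beside 0.04 over all genes tested. Of the 9 genes, 5 were higher without overlap of the groups and 1 lower, where 30.9% and 17.7% of all genes were. Those at a settled level summed to 235 and 225 FPKM in HDAC4 KO 3 and 4, against 193 and 235 FPKM in control 3 and 4. These sums overlapped, and most of each was Jun and Junb. Dusp1, at an unsettled level and outside the sums, measured 5.50 and 5.79 FPKM in HDAC4 KO cells, against 3.17 and 3.14 FPKM in controls. Egr1 was the 1 gene lower without overlap, at 18.7 and 16.3 FPKM in HDAC4 KO cells, against 21.5 and 27.55 FPKM in controls. Jun, Ier2 and Hspa1b overlapped between the groups. The part of the early response genes in the Cyr61 difference was not tested.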

How the data were processed

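RNA was sequenced with a stranded mRNA kit from 2 HDAC4 KO and 2 control libraries. Per the submitters' processing notes and the study's methods, single-end reads were converted with CASAVA 1.8.2, trimmed and aligned by TopHat (GRCm38), and Cufflinks and Cuffdiff estimated expression. The FPKM that the authors deposited for each library come with confidence bounds, beside a table of group FPKM whose fold changes, statistics, p and q were not used. Read counts were not used here, so depth and counting intervals are not given.

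Values of 1 or more with at least 3 decimals had lost their point. It was restored so that the estimate lay midway between its bounds, that bound width and FPKM agreed between libraries (range up to 0.9 on the log10 scale, margin 0.3, with a weight of 0.5 on the range of log10 FPKM) and that the libraries gave the group FPKM (tolerance 0.006 on the log10 scale). These settings were revised after implausible values had been seen. Rows of the authors' table, with the fold changes of the 10 genes, Hdac4 and a few others in view, had been looked at when the weight on the range was added. A few other genes may still be restored at a wrong power of 10 between groups, which bears on the counts of calls. Several bandwidths were tried for the level. Of 43437 genes, 25413 were kept and 17801 were at 0 in every library. A common power of 10 was fixed for 17117, inferred at a posterior of at least 0.95 for 4057 and open for 4239. In simulated data for the same comparison, made under these rules on genes above 0 in every library, 11764 of 11765 genes with a lost point were restored with the right ratios, so this is no independent check.

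log2(FPKM + 1) was fitted with limma 3.58.1 in R 4.3.3 (mean-dependent prior, genes averaging 1 FPKM or more). Adding 1 makes the difference of a low gene smaller than the log2 of its ratio. Shares and ratios had exact permutation tests. Besides the 10 genes and Hdac4, the text names of each of 3 lists the 2 genes with the smallest p in each direction and any called, and for each target the 2 genes nearest in pattern, except 1 gene that is not reported here. Acta2, Srf and the marker genes were named after their values were seen. The genes and lists were chosen with earlier results of these data known. Alternatives changed the pseudocount, filter, scaling, gene types, prior, replicate block, restoration and libraries. Promoter sequences are from RefSeq (GRCm38.p6), with entries for 7 of the 10 genes.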

Additional observations from a re-analysis of the deposited data

How the results depend on the processing

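With 2 libraries a group, calls depended on which genes were tested together and on each library. Over all genes, 5 were called higher and 24 lower, of which 22 were at 0 in both libraries of a group. The counts were 67 and 8 among protein-coding genes alone, 1 and 5 with no filter, and 9 and 22 at a mean of at least 5 FPKM. They were 0 and 0 where both restoration rules fixed the ratios or the digits fixed the level, and 3 and 16 with open levels at the next power of 10. Leaving out 1 library gave 0 to 5 higher (0 without HDAC4 KO 3 or 4, 3 without control 3) and 0 to 80 lower (0 without HDAC4 KO 3 or 4, 76 without control 3, 80 without control 4). Of the 10 genes, 1 (Ctgf) was called among protein-coding genes alone and 0 otherwise. There Hdac4 fell by 1.13 and passed, and 1 further target and 3 actin and SRF genes passed.

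The Ctgf difference lay between 1.03 and 1.32 over its alternatives and the Cyr61 difference between 0.37 and 0.50, without a change of sign. Wwtr1 turned to -0.01 and Tead2 to -0.05 with median-ratio scaling. Leaving out 1 library turned the sign of Yap1 (range -0.08 to 0.07, above 0 without control 3 or HDAC4 KO 3), Wwtr1 (-0.00 to 0.14, without HDAC4 KO 4), Tead2 (-0.09 to 0.16, without control 3), Tead4 (-0.25 to 0.00, without control 4) and Amotl2 (-0.06 to 0.24, without HDAC4 KO 4). The Hippo list median turned to -0.02 with median-ratio scaling. The Tead1 share difference, 0.21 percentage points, ranged from -2.87 without control 4 to 3.29 without control 3 (-1.03 without HDAC4 KO 4) and was -0.66 with Tead2 at 10 times its level. The Tead4 share difference, -0.61, ranged from -1.85 without control 3 to 0.63 without control 4 and was 0.04 with Tead2 at 0.1 times its level. The cause of these changes was not tested.

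Whether the replicate numbers pair the samples is not stated. The deviations of same-numbered libraries correlated at -0.155, a value that cannot settle this. With a replicate block, 4 genes were called higher and 19 lower, and 0 of the 10 genes. With the control numbers crossed, an alternative added after seeing the data like those on open levels, on digits, on Tead2 and, for counts over all genes and over lists, on both restoration rules, 1 was called higher and 9 lower.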
